A study of Mus musculus with 6 samples.

Results

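The genes followed were Slpi, encoding the secretory leukocyte protease inhibitor, and 5 members of the serpin family, Serpina3g, Serpinb1a, Serpinb6a, Serpinb9 and Serping1. They were read in mouse cells labelled as regulatory T cells (Treg), with and without a floxed allele of the acetyltransferase p300. The members were chosen by their symbols with the differences between these same 6 arrays already known, so their values are given as a description, with no test. Probe sets were taken where the platform annotation gave a member as the only symbol. This found 6 probe sets for 5 of the 6 listed members, among 12393 genes named in this way. No probe set carries Serpina3g as its symbol in that annotation, and the gene is not analysed here.

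The study measured total RNA of CD4+CD25+ cells on expression arrays, in 3 samples labelled fl-p300/Foxp3cre and 3 labelled Foxp3cre control, all on the C57Bl/6 strain. Both groups thus carry Foxp3cre, in which Cre recombinase is driven from Foxp3, the gene of the Treg lineage factor, and only the first carries the floxed p300 allele. The control titles read WT. By its title the study asks how loss of p300 affects Foxp3+ Treg. The sources used here do not give age, sex or the number of animals per sample, so the spread between samples may be partly technical. Cells were purified magnetically for 2 surface proteins that other activated T cells can also carry.

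Among the markers of the labelled cell type, Cd3e was between 11.46 and 11.63 on the log2 scale in p300-deleted arrays and between 11.21 and 11.53 in controls, and Cd4 and Il2ra were read at 8.62 or more on every array. In the p300-deleted group Foxp3 was read at 2.57, 3.04 and 3.15, near the medians of the bacterial control probe sets (2.18 to 2.34), and at 9.35 to 9.63 in controls. The labelled lineage marker was therefore close to background in the p300-deleted group by this 1 probe set. RNA integrity, read as the 3' signal of Gapdh less its 5' signal, gave 0.06 to 0.14 for p300-deleted samples and 0.21 to 0.59 for controls, and the groups did not overlap. The 18S ribosomal RNA probe sets averaged 7.74 to 9.47 and 5.68 to 8.69. Without an Ep300 probe set in the annotation, the deletion itself could not be checked.

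Protease inhibitors of these families limit the proteolysis that immune cells set off. SLPI is a small secreted protein with whey acidic protein domains that blocks neutrophil elastase and cathepsin G and is made by epithelia, neutrophils and macrophages. Serpins act as suicide substrates: a protease cuts the exposed reactive loop and is trapped in a covalent complex. The clade B serpins stay in the cytosol, where they protect a cell from its own granule and lysosomal proteases, whereas C1 inhibitor, the product of Serping1, circulates in plasma.

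Slpi was the member with by far the largest difference. Its probe set read 9.79, 8.85 and 10.07 in p300-deleted arrays 1, 2 and 3, against 6.33, 7.19 and 6.82 in control arrays 1, 2 and 3. Every p300-deleted array lay above every control array, and the closest pair was 1.66 apart. The group means were 9.57 ± 0.64 (SD, n = 3) and 6.78 ± 0.43 (SD, n = 3). The difference of 2.79 on the log2 scale (SE 0.32) corresponds to a 6.91-fold higher signal. It was the highest difference among the 8675 genes tested, while Foxp3 at -6.53 was larger in size in the other direction. As these are bulk samples, more cells that carry Slpi RNA and more Slpi RNA per cell cannot be told apart.

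Serping1, the other secreted member, inhibits the C1r and C1s proteases of complement and plasma kallikrein. It read 2.77, 2.77 and 2.67 in p300-deleted arrays against 2.75, 2.57 and 2.99 in controls. All 6 values lay below the limit of 3.91 under which a gene's mean was called dim and left out of the fit, and the groups overlapped. Its difference of -0.03 is between readings near background and says nothing about a level in the cells.

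Among the cytosolic serpins, Serpinb6a was the 1 with separated groups. Serpinb6a, an inhibitor of cathepsin G and related serine proteases, read 8.57, 8.54 and 8.51 in p300-deleted arrays against 7.56, 8.09 and 7.65 in controls. The p300-deleted arrays were almost level, with a mean of 8.54 ± 0.03 (SD, n = 3), while the controls spread more around 7.77 ± 0.29 (SD, n = 3). The difference was 0.77 (SE 0.15), a 1.70-fold higher signal, and the closest pair of arrays was 0.42 apart.

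Serpinb1a encodes the leukocyte elastase inhibitor, which acts on elastase, cathepsin G and proteinase 3. Its brighter probe set read 6.92, 5.66 and 6.47 in p300-deleted arrays against 6.26, 6.37 and 7.10 in controls. The highest and the lowest p300-deleted arrays enclosed 2 of the 3 controls, so the groups overlapped. The difference was -0.23 (SE 0.32), smaller than the SD of either group (0.64 and 0.46). A second, dim probe set of Serpinb1a read between 2.61 and 3.19 on all arrays, with a difference of -0.06.

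Serpinb9, the cytosolic inhibitor of granzyme B in cytotoxic lymphocytes and antigen-presenting cells, read 7.97, 7.67 and 7.38 in p300-deleted arrays against 7.27, 7.50 and 8.11 in controls. Here too the groups overlapped, with control 1 lowest and control 3 highest. The difference was 0.05 (SE 0.23), with means of 7.67 ± 0.29 and 7.63 ± 0.43 (SD, n = 3 each).

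**Figure D1:**
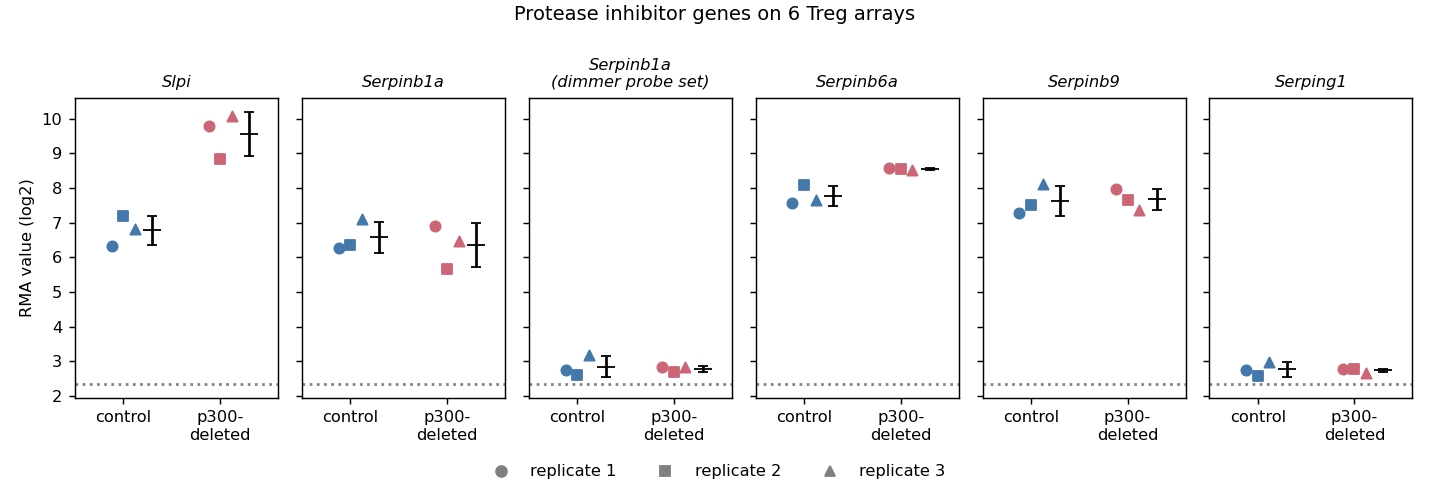
RMA values (log2) of the 6 member probe sets, control arrays in blue and p300-deleted arrays in red, with a marker shape for each replicate number. Black bars are mean ± SD of 3 arrays, and the dotted line is the highest array median of the bacterial control probe sets (2.34). The groups are separate for Slpi and Serpinb6a and overlap for the other probe sets.

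Of the 4 members that passed the filter on dim genes, 2 were among the genes called higher and 0 among those called lower in the fit over all genes, by limma with an adjusted p under 0.05. In the same fit 1.72% of the 8675 genes were called, 0.991% higher and 0.726% lower. Groups did not overlap for 2 of the 4 members and for 23.7% of all genes tested. The 4 members were above the dim limit on every array of both groups. Because the members were picked on this contrast, nothing is read from these shares. The same holds for the ranks and calls of members that follow, which are refits of the same arrays and no test of the members. Among 86 genes called higher, Slpi had rank 1 and Serpinb6a rank 52 by size. Slpi was called under 13 and Serpinb6a under 7 of 16 alternative settings. Slpi was not called without control 1, where 4 genes in all were called higher and 3 lower, nor with either RNA measure (18S or Gapdh) as a covariate. Serpinb6a was called without control 2 but with none of the other 5 arrays left out.

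**Figure D2:**
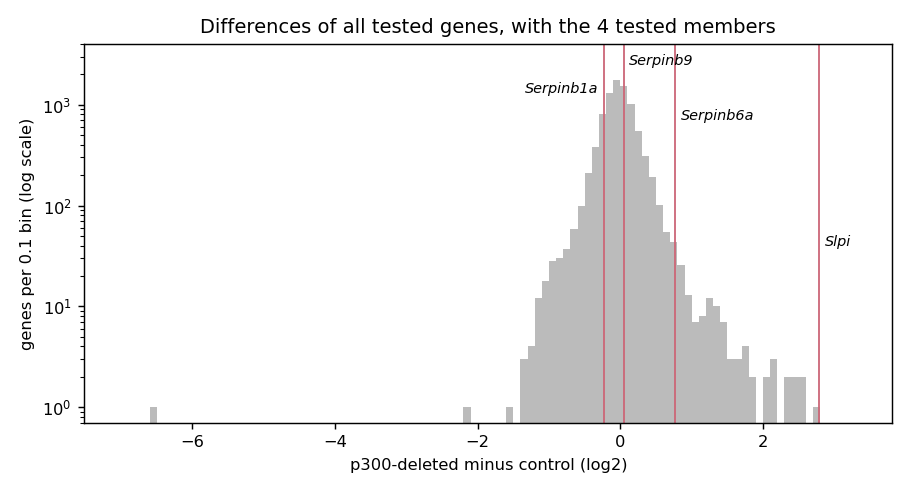
Differences (p300-deleted minus control, log2) of the 8675 tested genes in bins of 0.1, with the number of genes on a log scale and the 4 tested members as red lines. Slpi at 2.79 is at the upper end, Serpinb6a at 0.77 on the upper flank, and Serpinb9 (0.05) and Serpinb1a (-0.23) near the centre.

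The size of the Slpi difference did not rest on a single array. Leaving out each array in turn gave 2.54 to 3.15, lowest without p300-deleted 3 and highest without p300-deleted 2. For Serpinb6a the range was 0.66 to 0.93. Serpinb1a ran from -0.51 to 0.12 and Serpinb9 from -0.13 to 0.29, so both changed sign with the array left out. With the 18S signal as a covariate, Slpi was at 2.98 (SE 0.39) and Serpinb6a at 0.82 (SE 0.18). With the Gapdh 3' minus 5' difference as a covariate they were at 3.02 (SE 0.45) and 1.08 (SE 0.13). The Gapdh values of the groups did not overlap, so that fit cannot separate RNA integrity from the group.

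**Figure D3:**
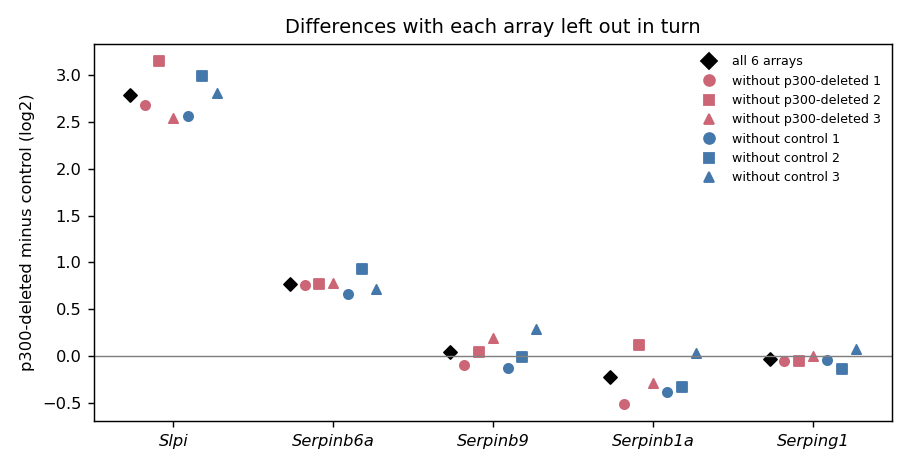
Differences (p300-deleted minus control, log2) of the 5 measured members with all 6 arrays (black diamonds) and without each p300-deleted (red) or control (blue) array, the shape giving the replicate number. Slpi stays between 2.54 and 3.15 and Serpinb6a between 0.66 and 0.93, while Serpinb9, Serpinb1a and Serping1 fall on both sides of 0.

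Over the 6 arrays Slpi and Serpinb6a correlated at r = 0.93, a value that includes the group difference they share. Slpi with Serpinb1a gave -0.05 and with Serpinb9 0.09, and Serpinb1a with Serpinb9 gave 0.60. With each group's mean taken off, Slpi gave 0.49 with Serpinb6a, 0.63 with Serpinb1a and 0.06 with Serpinb9, and Serpinb1a with Serpinb9 gave 0.64. These are descriptions over 6 arrays normalized together.

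Start-site sequences of the 2 members with separated groups, Slpi and Serpinb6a, and of Serpinb9, whose groups overlapped, are shown to let these genes be compared base by base. They are RefSeq sequences of GRCm38.p6, from 250 bases before to 50 bases after an annotated start, and Serpinb6a has 2 such starts. Capitals mark matches to any of the searched motifs listed after the sequences. The windows are chr2:164356458-164356757 on the minus strand for Slpi, chr13:34002745-34003044 and chr13:33936034-33936333 on the minus strand for Serpinb6a starts A and B, and chr13:33004291-33004590 on the plus strand for Serpinb9.
Slpi: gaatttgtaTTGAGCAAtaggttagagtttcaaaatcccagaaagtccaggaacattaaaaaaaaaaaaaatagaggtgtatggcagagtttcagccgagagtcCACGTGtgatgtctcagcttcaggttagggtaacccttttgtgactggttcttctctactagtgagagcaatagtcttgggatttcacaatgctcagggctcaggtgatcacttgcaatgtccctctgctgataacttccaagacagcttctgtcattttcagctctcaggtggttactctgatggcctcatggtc
Serpinb6a start A: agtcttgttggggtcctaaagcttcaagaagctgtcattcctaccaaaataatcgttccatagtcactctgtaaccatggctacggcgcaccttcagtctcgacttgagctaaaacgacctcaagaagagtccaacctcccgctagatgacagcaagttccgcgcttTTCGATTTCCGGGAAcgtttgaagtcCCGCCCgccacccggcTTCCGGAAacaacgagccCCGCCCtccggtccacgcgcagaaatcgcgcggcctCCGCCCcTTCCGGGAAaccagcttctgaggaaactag
Serpinb6a start B: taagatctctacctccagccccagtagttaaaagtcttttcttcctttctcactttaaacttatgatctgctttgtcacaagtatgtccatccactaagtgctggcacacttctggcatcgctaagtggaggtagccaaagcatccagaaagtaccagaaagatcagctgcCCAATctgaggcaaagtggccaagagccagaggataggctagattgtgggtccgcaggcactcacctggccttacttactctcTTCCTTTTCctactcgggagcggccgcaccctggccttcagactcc
Serpinb9: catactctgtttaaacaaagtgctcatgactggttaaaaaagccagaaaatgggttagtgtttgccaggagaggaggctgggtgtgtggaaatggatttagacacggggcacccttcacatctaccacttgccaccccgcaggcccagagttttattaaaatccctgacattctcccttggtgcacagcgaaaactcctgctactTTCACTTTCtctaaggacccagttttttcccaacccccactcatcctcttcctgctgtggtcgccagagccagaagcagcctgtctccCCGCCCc

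The search covered both strands for a TATA box (TATAAA, present in 13.6% of 32851 windows of the same length), a CCAAT box (CCAAT, 37.4%), a GC box (GGGCGG, 35.7%), the cyclic AMP response element (TGACGTCA, 1.79%), AP-1 (TGANTCA, 7.81%), the STAT element GAS (TTCNNNGAA, 8.30%), a shortened pattern of the interferon-stimulated response element (GAAANNGAA, 8.56%), C/EBP (TTGCNNAA, 10.8%), forkhead (TGTTTAC, 3.65%), ETS (CCGGAA, 14.9%) and an E-box (CACGTG, 7.15%). The Slpi window held 1 C/EBP match at position -241 and 1 E-box match at -146 from the start. Start A of Serpinb6a held GC box, GAS, interferon response and ETS matches, of which a GAS match shares bases with ETS and interferon response matches. Its start B held 1 CCAAT box match and 1 interferon response match. The Serpinb9 window held 1 GC box match and 1 interferon response match. Slpi and Serpinb6a had no motif of the search in common. These are matches of letters only, and none is shown to be a bound site.

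In RefSeq Serpinb1a, Serpinb6a and Serpinb9 lie in 1 cluster of clade B serpin genes, with Serpinb1a and Serpinb9 3 protein-coding genes apart. Slpi lies between Svs5 and Matn4. The whey acidic protein family genes Wfdc15a, Wfdc15b and Wfdc2 are at positions -8, -7 and 8 from it, counted in protein-coding genes. Among the 8 protein-coding genes on each side of Slpi, 7 were tested and 0 were called by limma (2 at an unadjusted p under 0.05). Over all 8675 genes 18.1% had an unadjusted p under 0.05, with 8.21% on the higher and 9.89% on the lower side, and 45.0% of all differences were above 0. The differences of the 7 tested neighbours ran from -0.52 for Wfdc2 to -0.03 for Sys1, all below 0, against 2.79 for Slpi. Of the 16 neighbours 13 had a probe set, and those below the dim limit ran from -0.10 for Svs6 to 0.11 for Svs5. Of 6 tested neighbours of Serpinb6a, 0 were called (2 at an unadjusted p under 0.05), with Nqo2 highest at 0.34 and Tubb2a lowest at -0.55.

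Of 26 other serpin genes with a probe set, 20 were dim and 6 were tested. By limma 0 of the 6 were called in either direction (1 at an unadjusted p under 0.05), and their median of 0.03 was close to that of all genes tested (-0.03). Serpinc1, which encodes antithrombin, read 6.25, 6.38 and 6.26 in p300-deleted arrays against 5.72, 6.11 and 5.98 in controls, a difference of 0.36 (SE 0.13, limma adjusted p = 0.189) between groups that did not overlap. Serpini1, neuroserpin, was at 0.33 (adjusted p = 0.465). Serpinb6b, a close relative of Serpinb6a, had the lowest value of the 6 at -0.28 (SE 0.22, adjusted p = 0.563), the opposite sign to Serpinb6a. The 20 dim serpins had differences from -0.28 to 0.20. The members had been taken out of this family with values known, so the remaining genes are not an unselected sample of it.

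Other inhibitor families gave a similar count. Their list held 48 genes, of the whey acidic protein, cystatin and TIMP families and of Kunitz, Kazal and other inhibitors. Of these, 19 were tested and 0 were called by limma (at an unadjusted p under 0.05, 2 higher and 1 lower), with a median below 0.01. Stfa3, a stefin that inhibits cysteine cathepsins, read 5.87, 6.70 and 5.94 against 4.86, 5.27 and 4.33 in controls. The groups were separate, but the difference of 1.35 (SE 0.28) missed the threshold by limma with an adjusted p of 0.0517. Wfdc21, of the same domain family as Slpi, was at 0.95 (SE 0.27, adjusted p = 0.123), with a control mean of 3.82 under the dim limit, so that it passed only through the p300-deleted group (4.78), and Wfdc2 at -0.52 (adjusted p = 0.294). Cstb, cystatin B, was at 0.14 and Timp2, a metalloproteinase inhibitor and the 1 TIMP tested, at 0.01. Among the Kunitz, Kazal and other inhibitors Reck was at -0.38 (adjusted p = 0.135) and Ctla2b at -0.36 (adjusted p = 0.296).

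Proteases that such inhibitors act on, with their relatives, the metallocarboxypeptidase gene Cpa3 and the urokinase receptor gene Plaur, were counted next. Of 54 with a probe set, 29 were tested, and 6 rose, 0 fell and 23 did not pass, with a median of 0.14, against 0.991% of all genes called higher. The 6 lie in 2 groups: 5 of 9 granule proteases of mast cells, basophils and neutrophils, and 1 of 4 granzymes. Of 12 genes of the cathepsin list, which includes legumain, and 4 of complement, contact and fibrinolysis, 0 were called by limma (0 at an unadjusted p under 0.05 in either). When 1 p300-deleted array was left out, the number called was 2 (array 1), 4 (array 2) or 1 (array 3). When 1 control was left out it was 0 (array 1), 2 (array 2) or 5 (array 3).

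Mcpt8, a basophil protease, rose most. It read 8.22, 7.12 and 6.25 in p300-deleted arrays against 4.70, 4.26 and 5.03 in controls, a difference of 2.53 (SE 0.43, limma adjusted p = 0.0374). Every p300-deleted array was above every control, with the spread widest in the p300-deleted group. The mast cell chymases Cma1 and Mcpt4 rose by 1.67 and 1.38, the tryptase Tpsb2 by 1.10 and Cpa3, a metallocarboxypeptidase stored with them, by 1.04. Cma1 and Mcpt4 were called under 11 of 16 alternatives each, Mcpt8 under 9, Tpsb2 under 8 and Cpa3 under 6.

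Neutrophil granules hold cathepsin G and elastase, which SLPI and Serpinb1a inhibit, and proteinase 3, which Serpinb1a inhibits. SLPI is also known to inhibit mast cell chymase and tryptase. Cathepsin G, Ctsg, read 6.82, 5.20 and 5.29 in p300-deleted arrays against 3.85, 4.18 and 4.32 in controls, a difference of 1.66 (SE 0.38, limma adjusted p = 0.0760). Prtn3, proteinase 3, was at 1.23 (SE 0.37, adjusted p = 0.131) and Elane, neutrophil elastase, at 0.70 (SE 0.25, adjusted p = 0.192). For all 3 the groups were separate and p300-deleted 1 was the highest array, but none passed the threshold with all arrays. Ctsg was called without p300-deleted 1, as 1 of 2 proteases called there with Mcpt8, and with array weights.

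Of the 4 granzymes tested, 1 was called. Gzma, a tryptase-like granzyme, rose by 0.73 (SE 0.14, limma adjusted p = 0.0445; called under 9 of 16 alternatives), from 8.49, 8.91 and 8.89 in controls to 9.40, 9.56 and 9.51. Gzmb, which Serpinb9 inhibits, read 7.56, 7.19 and 7.21 in p300-deleted arrays against 8.33, 7.49 and 9.49 in controls. Its groups overlapped, and the difference of -1.12 (SE 0.42, adjusted p = 0.212), called lower with array weights, stood beside 0.05 for Serpinb9. Among the cathepsins, Ctsl was at 0.31 (adjusted p = 0.310) and Ctsh at -0.30 (adjusted p = 0.736). In the complement and contact group, measured beside dim Serping1, Masp2 was at -0.15 and Plaur, a receptor and not a protease, at -0.05.

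SLPI also binds the growth factor progranulin, phospholipid scramblases and annexin A2. Of 4 genes for such partners tested, 0 were called by limma (at an unadjusted p under 0.05, 1 each way). Plscr1 was at 0.49 (adjusted p = 0.182), and S100a10, which forms a complex with annexin A2, at -0.46 (adjusted p = 0.0843). The progranulin gene Grn was at 0.19 and Anxa2 at -0.44.

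**Figure D4:**
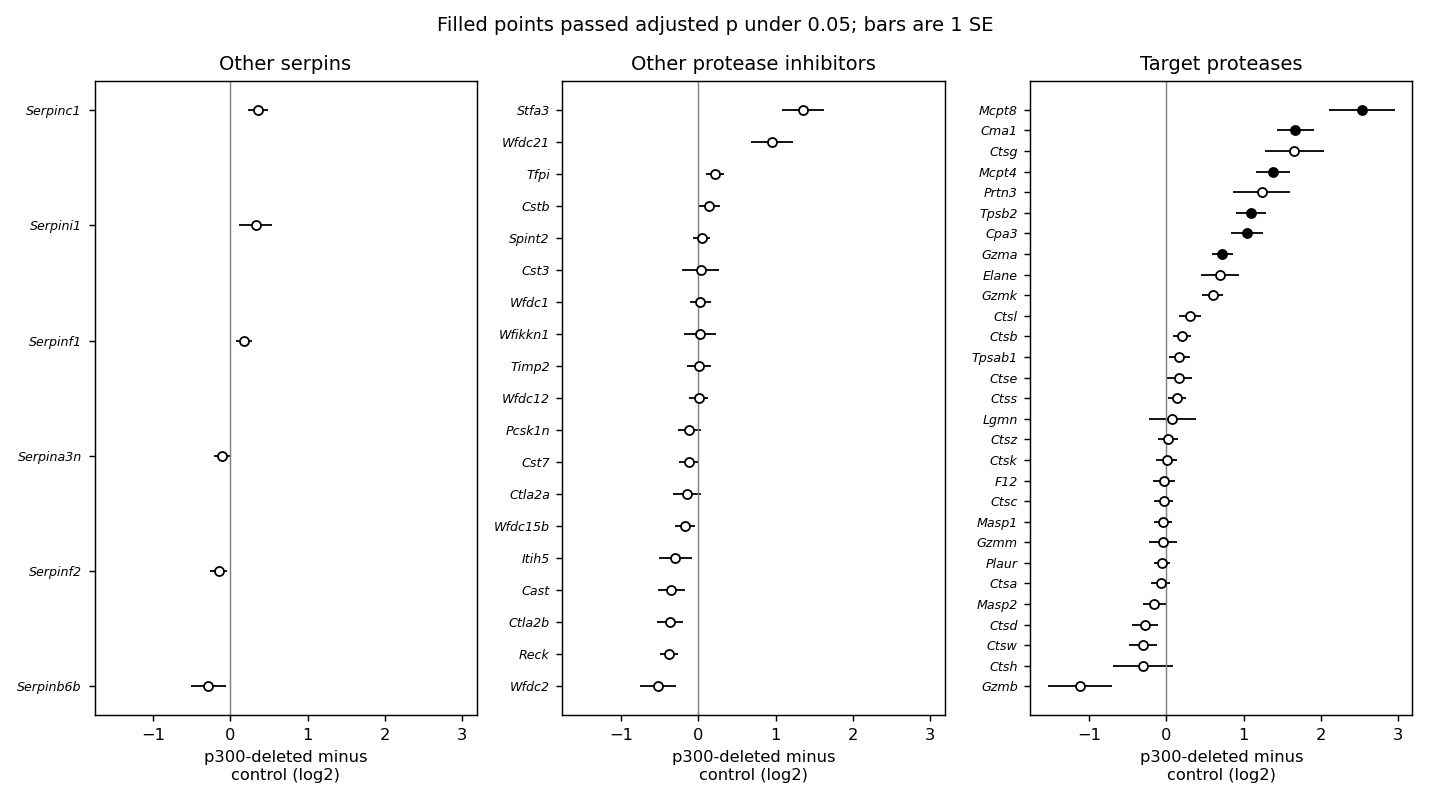
Differences (p300-deleted minus control, log2) with bars of 1 SE for the tested genes of 3 lists: 6 other serpins, 19 other protease inhibitors and 29 genes of the protease list, which includes the receptor gene Plaur. Filled points, 6 in all and each in the protease list, passed an adjusted p under 0.05 over all genes.

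Cell types other than Treg can supply Slpi and the granule proteases, and the values of their markers are given beside those of Slpi. Of 14 neutrophil markers with a probe set 11 were tested, 10 were above 0 and 0 were called by limma (8 higher at an unadjusted p under 0.05), with S100a8 at 2.59, S100a9 at 2.43 and Mmp9 lowest at -0.25. The list mean was 5.43 to 7.26 in p300-deleted arrays and 4.61 to 5.16 in controls. Lcn2, Mmp8 and Cxcr2 were below the dim limit. Ltf, with means of 4.59 and 3.57, passed it only through the p300-deleted group. Over all tested genes 45.0% were above 0, and 8.21% were higher at an unadjusted p under 0.05 by limma. Over the 6 arrays the neutrophil mean and Slpi correlated at r = 0.81. Without p300-deleted 1, whose neutrophil mean was the highest at 7.26, Slpi differed by 2.68 (SE 0.35). The neutrophil means of p300-deleted 2 and 3 (5.43 and 6.09) were still above every control. Leaving out array 1 thus keeps a neutrophil difference, and a part of neutrophils was not tested.

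For monocytes and macrophages 12 of 16 markers were tested, 11 were above 0 and 0 were called (6 higher at an unadjusted p under 0.05), led by Vcam1 (2.43) and C1qc (1.57), with Ms4a7 lowest at -0.05. C1qc, with means of 5.32 and 3.76, passed the dim limit only through the p300-deleted group. The list means of the groups overlapped, at 5.33 to 6.83 and 4.76 to 5.46. Cd14, Marco, Fcgr1 and Itgam were dim. Their correlation with Slpi over the 6 arrays was 0.63.

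All 10 tested mast cell and basophil markers were above 0 and 6 were called, against 0.991% of all genes called higher by limma. Mcpt8 and Fcer1a (1.67) led, with Kit lowest at 0.09 and Ms4a2 dim. Tpsab1, with means of 4.01 and 3.84 and not called, passed the dim limit only through the p300-deleted group. The list means were 5.54 to 6.11 and 4.71 to 4.85. Of 8 plasma cell markers 7 were above 0 and 5 were called, led by Tnfrsf17 (1.80) and Derl3 (1.37), with Prdm1 lowest at -0.09 and means of 8.46 to 8.96 and 7.76 to 7.89. The mast cell and basophil mean correlated with Slpi at r = 0.95 and the plasma cell mean at 0.96. The epithelial and stromal mean, of 3 tested genes, gave 0.86, the NK mean 0.69 and the dendritic mean 0.26. Below 0 were the B cell mean (-0.52), the erythroid and platelet mean (-0.52) and the T cell and Treg mean (-0.95). These correlations share the group difference and the normalization and are descriptions only. The array means of 6 of the 10 marker lists did not overlap between the groups. Among all single genes tested 23.7% did not overlap, which is a share of genes and not of list means. The neutrophil, mast cell and basophil, plasma cell, NK, and epithelial and stromal means were higher in p300-deleted arrays. The T cell and Treg mean was lower, but it includes Foxp3 at -6.53, and 9 of its 12 genes were above 0 (median 0.20). The mast cell and protease lists share genes, and so do the neutrophil and protease lists and, through Gzma, the NK and protease lists.

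NK markers had 1 of 8 called by limma (4 higher at an unadjusted p under 0.05), and it was Gzma, the granzyme already counted above. Ncr1 was at 1.46, Klrk1 at 1.15 and Nkg7 at -0.37, with list means of 7.19 to 7.70 against 6.85 to 7.12. Klra8, with means of 4.81 and 3.74, passed the dim limit only through the p300-deleted group. Of 13 epithelial and stromal markers, 10 were dim, among them the keratins Krt8, Krt18 and Krt19 and Cdh1. The 3 that were tested, Epcam (0.54), Pecam1 (0.36) and Krt5 (0.11), had 0 calls (1 at an unadjusted p under 0.05). Dendritic markers (Itgax 0.43, Bst2 0.06, Flt3 -0.22) and erythroid and platelet markers (Itga2b -0.02, Gp9 -0.12, Alas2 -0.69) had 0 calls by limma each (1 and 0 at an unadjusted p under 0.05). B cell markers had 1 call, lower, for Spib (-0.95), with Cd79a at -0.22 and Cd79b at -0.24. Of the 12 genes of the T cell and Treg list 9 were above 0, with Cd4 at 0.68 and Ikzf2 at 0.60. Foxp3 alone was called by limma, lower (at an unadjusted p under 0.05, 3 higher and 1 lower). Cd8a, with means of 3.96 and 3.86, passed the dim limit only through the p300-deleted group, and Foxp3 only through controls. The part of any of these cell types in the Slpi and Serpinb6a differences was not tested.

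**Figure D5:**
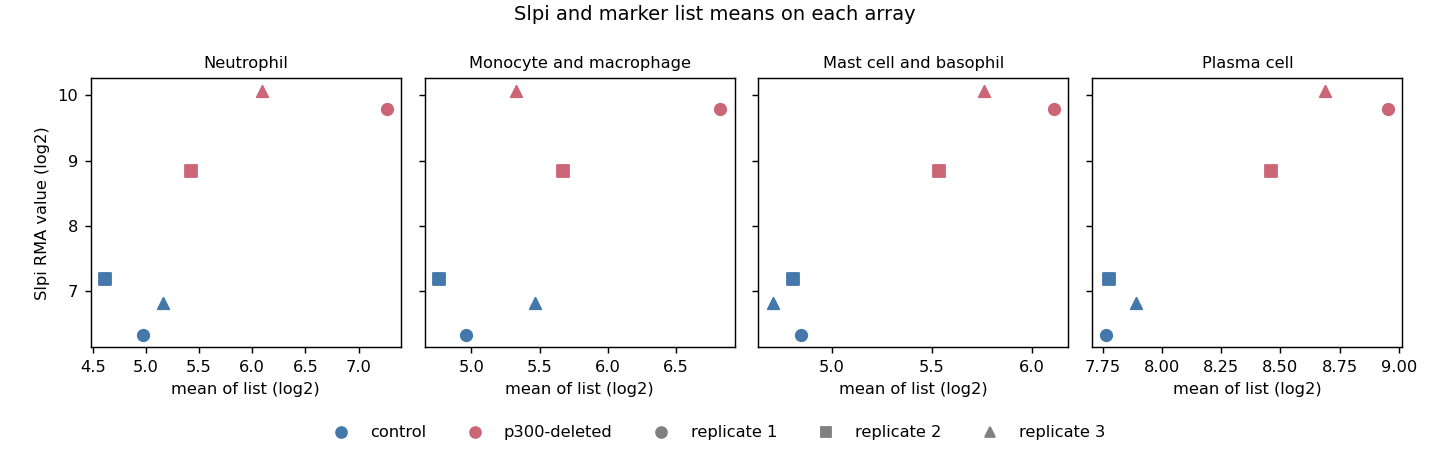
Slpi value (log2) of each array against the mean of the tested neutrophil, monocyte and macrophage, mast cell and basophil, and plasma cell markers (log2), control arrays in blue and p300-deleted arrays in red. The correlation with Slpi over the 6 arrays is 0.81, 0.63, 0.95 and 0.96 in that order, and only the monocyte and macrophage means overlap between the groups.

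Over the 6 arrays, the tested genes whose values followed Slpi most closely were Cd81, a tetraspanin (r = 0.99), Bcam, an adhesion molecule that binds laminin (r = 0.99), and Il13, a type 2 cytokine (r = 0.99). Their own differences were smaller than that of Slpi, at 0.46, 0.49 and 0.32. For Serpinb6a the closest was Pfn2, a profilin of the actin cytoskeleton (r = 0.999), which differed by 0.74. For Serpinb1a it was Kcnk1, a potassium channel (r = 0.997), and for Serpinb9 Polr3f, a subunit of RNA polymerase III (r = 0.99), with differences of -0.17 and 0.09. These are the highest of all correlations with tested genes over 6 points that share the group difference and the normalization, and they are given as likeness of pattern only.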

How the data were processed

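Values in the deposited table are log2 signals of single probe sets, which the authors obtained by RMA according to the submitters' processing notes (version not given in the sources used here). RMA makes the distributions of the arrays nearly equal, so a change in total RNA per cell is not visible, and dim probe sets have compressed differences. Array medians were 5.38 to 5.46, and 3 arrays per group limit the precision. Groups and replicate numbers came from the sample titles. Symbols from the platform annotation were updated by gene ID through RefSeq GRCm38.p6. Each of the 12393 genes was read by its brightest probe set, and the 30% of genes with the lowest means (limit 3.91) were left out, leaving 8675. The comparison used limma 3.58.1 (lmFit, eBayes; R 4.3.3) without covariates, with two-sided p adjusted by Benjamini-Hochberg over all genes tested and called at 0.05, after the fit was tested on simulated data. Differences are p300-deleted minus control, with the SE of the fit. For the members no p is given. The members, gene lists and motifs were chosen with earlier results of these data known. Named genes were the members, up to 8 called genes per direction in each list, the 2 largest differences where a list had no call, the highest 2 and lowest 1 of each marker list, 3 genes most like Slpi and 1 like each other member. Serpinb6b, Prtn3, Elane, Ctsg, Gzmb, Grn, Anxa2, the neighbours and the dim markers were added after their values were seen. So were Ltf, Klra8, Tpsab1 and Cd8a. The alternatives were other dim limits, median centring, quantile normalization, gene means over probe sets, another variance model, array weights, a replicate block, each array left out and, added after the data were seen, 2 covariates. Probe sets whose IDs end in _s_at or _a_at can bind several transcripts, and clade B serpins have close copies, so values of single members are uncertain.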

Additional observations from a re-analysis of the deposited data

How the results depend on the processing

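The number of genes called, 86 higher and 63 lower, depended strongly on single arrays and on array weights. Leaving out each array in turn gave 4 to 142 higher and 3 to 94 lower. With array weights it was 465 and 554, with the 18S covariate 10 and 5, with the Gapdh covariate 25 and 23, and with the mean of all probe sets 37 were lower. The labels state no pairing by replicate number, and deviations of same-numbered arrays correlated at -0.07, 0.12 and -0.12. With 3 arrays per group and each group's mean taken off, these values cannot decide whether the numbers pair the samples. With the replicate block 56 genes were called higher, 1 other inhibitor (Stfa3) was called, and Serpinb6a was not. With array weights 1 other serpin (Serpinc1) and 1 other inhibitor (Stfa3) were called, and 9 proteases, which added Ctsg, Gzmk and, lower, Gzmb. The other serpins and other inhibitors had 0 calls with each array left out. Of the 6 proteases, 2 were called with a dim limit of 50%, 2 with the 18S covariate, 0 with the Gapdh covariate and 0 to 5 with an array left out.

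Slpi ran from 2.54 to 3.15 and Serpinb6a from 0.66 to 0.93 with an array left out, Serpinb1a from -0.51 to 0.12, Serpinb9 from -0.13 to 0.29 and Serping1 from -0.14 to 0.08. With the Gapdh covariate Serpinb6a was at 1.08 and Serping1 at -0.22. Of 85 values under the other alternatives 69 stayed within 1 SD or 1.5 times the count. The cause of the changes was not tested. Signal over background limits Serping1 and 20 other serpins, and a single probe set stands for Slpi, Serpinb6a and Serpinb9.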

Other observations

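The annotation gives 3 further probe sets several serpin symbols each, covering Serpina1 and Serpinb9 relatives that are not among the members. They read between 1.96 and 3.17 on all 6 arrays, below the dim limit of 3.91, and the p300-deleted and control arrays overlapped for each of them.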
